A study of Saccharomyces cerevisiae with 12 samples.

Results

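The genes described here encode the proteasome of Saccharomyces cerevisiae and its transcription activator. They are the 18 RPN and RPT subunits of the regulatory particle, the 14 PRE, PUP and SCL1 subunits of the core particle, and RPN4. They were taken by gene name and make up 33 of the 6769 features listed in both deposited tables. All 33 were present in both tables, and all 33 had a mean of at least 1 FPKM, the minimum for testing.

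RNA of 12 yeast samples at 36 h was sequenced, in 4 groups of 3 libraries. High-SAM strain YJ-06 was compared with low-SAM strain YJ-04, both carrying an introduced bikaverin biosynthesis module, and high-SAM strain YJ-09 with low-SAM strain YJ-08, both carrying plasmid pRS416. SAM is S-adenosylmethionine, the methyl donor of most cellular methylation, bikaverin is a fungal pigment, and pRS416 is a centromeric yeast plasmid. The sources used here do not give the parent strain, the mating type or how SAM was raised. Nothing in them says that replicates were separate cultures, so p-values measure only the spread among these libraries, which may be technical.

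The proteasome degrades proteins that carry ubiquitin chains. Its regulatory particle has a base, with a ring of ATPases (Rpt proteins) that unfold substrates and non-ATPase subunits that hold ubiquitin receptors, and a lid, whose Rpn11 subunit removes ubiquitin. Its core particle stacks alpha rings, which form the gate, on beta rings, of which the subunits Pre3, Pup1 and Pre2 carry the proteolytic sites. In yeast, Rpn4 binds a promoter element called PACE upstream of most of these genes and is itself degraded by the proteasome, so that loss of proteasome activity raises Rpn4 and then subunit transcription. RPN4 is in turn a target of the activators Pdr1, Pdr3 and Yap1.

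The PACE element was present upstream of most subunit genes. In the 500 bases before the start codon, GGTGGCAAA was found on either strand in 27 of 32 subunit genes (84.4%), against 99 of 6000 promoters of protein-coding genes of the same length (1.65%). The looser GGTGGCNAA, which includes the first motif, was found in 29 of 32 (90.6%), against 157 of 6000 (2.62%), and in RPN10 and RPN13 the match was of this looser form. RPN8, PRE5 and PUP1 held neither motif in this window, and nor did RPN4. Each of the 29 genes had 1 match, whose first base lay 84 to 183 bases before the start codon (median 119), on the gene's own strand in 20 genes and on the other in 9. The following stretches, from the R64 RefSeq reference, are shown for genes whose levels are described library by library further on. Each is read 5′ to 3′ on the strand that carries the match, and the capitals mark PACE.
RPN1 (YHR027C), chrVIII:164828-164876, minus strand: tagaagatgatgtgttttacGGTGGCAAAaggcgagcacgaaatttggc
RPN2 (YIL075C), chrIX:220791-220839, minus strand: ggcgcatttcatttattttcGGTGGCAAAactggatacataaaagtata
RPN6 (YDL097C), chrIV:286780-286828, minus strand: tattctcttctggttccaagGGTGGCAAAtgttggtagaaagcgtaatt
SCL1 (YGL011C), chrVII:475327-475375, plus strand: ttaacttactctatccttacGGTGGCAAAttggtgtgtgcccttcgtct
PRE8 (YML092C), chrXIII:86831-86879, minus strand: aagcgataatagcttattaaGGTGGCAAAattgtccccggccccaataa
PRE3 (YJL001W), chrX:435025-435073, plus strand: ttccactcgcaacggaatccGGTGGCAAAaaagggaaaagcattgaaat
PRE1 (YER012W), chrV:177673-177721, plus strand: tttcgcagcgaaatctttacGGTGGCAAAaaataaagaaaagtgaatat
PRE4 (YFR050C), chrVI:249949-249997, plus strand: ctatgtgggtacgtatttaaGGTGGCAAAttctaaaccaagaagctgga
RPN13 (YLR421C), chrXII:965646-965694, minus strand: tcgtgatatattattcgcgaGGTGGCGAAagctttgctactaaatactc

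The 9 stretches shared the element and no fixed distance to it, and genes that moved apart in the pRS416 pair, such as SCL1 and PRE3, both held the full 9 bases. RPN4 held no PACE match but 2 matches to TCCGNGGA, the motif of Pdr1 and Pdr3, which was in 175 of 6000 promoters (2.92%) and in 0 of 32 subunit promoters. It also held 1 match to TTACTAA, a Yap1 motif, which was in 708 of 6000 promoters (11.8%) and in 5 of 32 subunit promoters. All 3 matches fell within 95 bases, shown on the RPN4 strand with the matches in capitals, of which the second Pdr motif lies on the other strand.
RPN4, chrIV:417066-417160, minus strand: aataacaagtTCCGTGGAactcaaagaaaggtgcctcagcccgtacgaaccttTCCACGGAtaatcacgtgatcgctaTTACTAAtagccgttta
These matches are a description of the letters and not of binding.

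**Figure D1:**
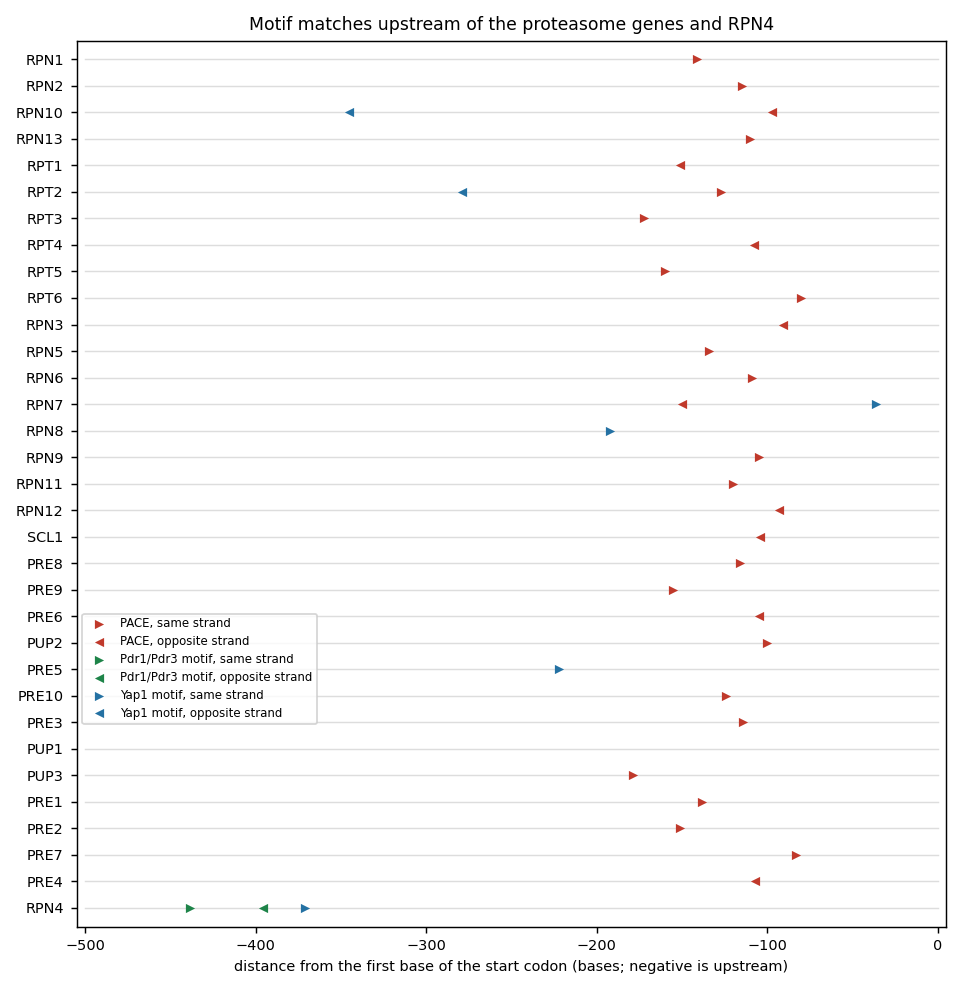
Motif matches in the 500 bases before the start codon of each gene, with the distance from the start codon in bases on the horizontal axis; triangles pointing right are on the gene's strand and triangles pointing left on the other. PACE lies 84 to 183 bases upstream in 29 subunit genes, and the Pdr1/Pdr3 matches are in RPN4.

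Before the results, 3 features of the libraries bear on the values. Reads recovered from the FPKM steps came to 15.01 to 17.8 M per bikaverin library and 40.1 to 45.1 M per pRS416 library. A gene described here held 1518 to 14254 of them in a bikaverin library and 3896 to 46296 in a pRS416 library. Replicate 2 of pRS416 high SAM had the highest level of its 3 libraries in 30 of 32 subunits. Its median log2 deviation over all tested features was 0.0052. That deviation is from the mean of all libraries of the pair, high and low SAM together, and not from its own group. The counts of members and subcomplexes called in that pair, and in the difference between the pairs, are also given without this replicate. Mating genes also differed in the pRS416 pair. Of 12 haploid and pheromone response genes 0 were called higher and 12 lower, with a summed level of 146 to 165 FPKM in high SAM, against 994 to 1037 FPKM in low SAM. Of 4 alpha-mating-type genes 0 were higher and 4 lower (63.6 to 74.6 FPKM, against 966 to 1042 FPKM), and of 7 a-mating-type genes 2 were higher and 4 lower (108 to 123 FPKM, against 144 to 150.2 FPKM). For the bikaverin pair, 6 of the 12 were higher and 2 lower (4 lower without high-SAM replicate 1, and 1 without high-SAM replicate 2 or 3 or low-SAM replicate 1 or 2; 739 to 867 FPKM, against 682 to 727 FPKM), 4 of the 4 were higher (1136 to 2069 FPKM, against 491 to 611 FPKM), and of the 7, 0 were higher (3 under quantile normalization, 1 without low-SAM replicate 2) and 1 lower (81.3 to 94.8 FPKM, against 95.6 to 102.0 FPKM). No marker was listed at 0 in any library. The part of these differences in the proteasome results was not tested.

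In the bikaverin pair, proteasome genes were higher in the high-SAM strain across every subcomplex, by small amounts. Of 33 genes, 27 rose and 0 fell (limma on log2(FPKM + 1), adjusted p below 0.05), where 28.8% of the 6459 tested features were called higher and 27.9% lower (56.7% in either direction). The median log2 fold change of the 32 subunits was 0.36, beside 0.01 over all features tested. The 3 high-SAM libraries lay above all 3 low-SAM libraries in 29 of 32 subunits, which 33.4% of features did. Summed over the 32 subunits, the level was 9401, 9576 and 9712 FPKM in high SAM, against 7557, 7354 and 7544 FPKM in low SAM, or 1.05 ± 0.0247% and 0.767 ± 0.0125% of all FPKM (SD, n = 3 each). By subcomplex, 3 of 4 non-ATPase base genes, 5 of 6 ATPase genes, 6 of 8 lid genes, 6 of 7 alpha genes and 6 of 7 beta genes rose. With 1 library left out, these counts were 2 to 3, 4 to 5, 4 to 7, 6 and 4 to 5, in the same order. The 6 that did not pass were RPN13, RPT6, RPN5, RPN8, PUP2 and PUP3, with log2 fold changes between -0.12 and 0.20. Leaving out 1 library at a time, 20 of the 27 calls held in every fit, and RPN10, RPT1, RPN3, RPN6, PRE3, PRE1 and RPN4 missed the threshold in at least 1. As these are bulk samples, a change in the share of cells of a kind and a change in RNA per cell cannot be told apart.

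In the pRS416 pair, the genes split. Of 33, 18 rose and 3 fell, where 39.1% of the 6342 tested features were called higher and 38.4% lower (77.5% in either direction). The split depended on scaling, with 12 higher and 8 lower under quantile normalization, 14 and 7 with voom on recovered reads, and 16 and 5 without replicate 2 of high SAM. The median log2 fold change of the 32 subunits was 0.23, beside -0.01 over all features, and was 0.0442 under quantile normalization and 0.151 without that replicate. Summed over the subunits, the level was 8483, 9869 and 8419 FPKM in high SAM, against 7590.2, 7379 and 7352 FPKM in low SAM, or 0.907 ± 0.0750% and 0.723 ± 0.0037% of all FPKM (SD, n = 3 each). The 3 high-SAM libraries lay above all low-SAM libraries in 17 of 32 subunits and below all in 5, which 40.4% and 39.9% of features did. Called higher were 3 of 4 non-ATPase base genes, 3 of 6 ATPase genes, 5 of 8 lid genes, 4 of 7 alpha genes and 2 of 7 beta genes, and the 3 called lower, PRE3, PRE1 and PUP1, were all of the beta ring. Under quantile normalization, 3 and 1, 1 and 0, 3 and 1, 3 and 1, and 1 and 5 genes of these subcomplexes, in the same order, were higher and lower. Without replicate 2 of high SAM they were 3 and 1, 2 and 0, 5 and 1, 3 and 0, and 2 and 3. Without low-SAM replicate 2, 3 lid genes were called higher, and without any 1 of the low-SAM replicates, 1 beta gene.

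**Figure D2:**
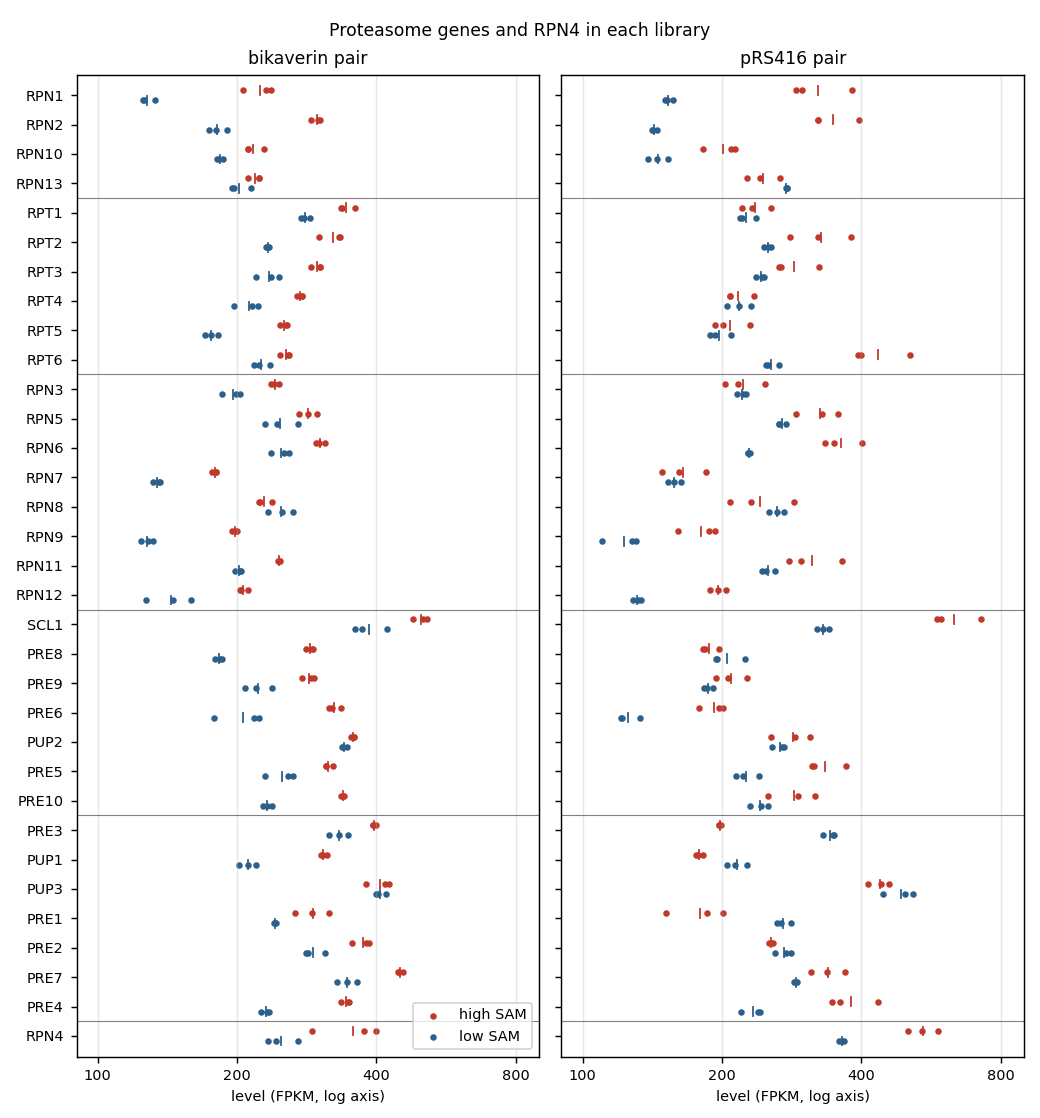
Level of each gene in each library (FPKM, log axis), in the bikaverin pair (left) and the pRS416 pair (right), with high SAM above low SAM; points are libraries, short bars means of 3, and lines separate the subcomplexes. High-SAM points lie to the right of low-SAM points for most genes on the left, and on the right RPN1, RPN2, SCL1 and RPT6 lie far to the right while PRE3 and PRE1 lie to the left.

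RPN4 was higher with high SAM in both pairs. It had 289.8, 377 and 400.1 FPKM in the bikaverin high-SAM libraries, against 270.4, 243 and 234 FPKM in the low-SAM libraries, a 1.43-fold difference (log2 fold change 0.50 ± 0.13, SE, limma adjusted p = 0.014). The groups did not overlap, but replicate 1 of high SAM was the closest to the low-SAM libraries, and without replicate 2 of high SAM the limma adjusted p was 0.055, the highest of a range starting at 0.00095 over the fits that left out 1 library. For the pRS416 pair, RPN4 had 504, 587 and 540.2 FPKM in the pRS416 high-SAM libraries, against 358, 367 and 364 FPKM in the low-SAM libraries, a 1.50-fold difference (log2 fold change 0.58 ± 0.08, limma adjusted p = 8.3e-05). These groups were clearly apart, and the call held in every fit that left out 1 library and under both other scalings. The change of RPN4 was not shown to differ between the pairs (difference -0.08 ± 0.16, limma adjusted p = 0.70, in 1 fit of all 12 libraries).

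Among the 32 subunit genes, the scaffold genes of the base, RPN1 and RPN2, had the highest log2 fold changes in both pairs. RPN1, which docks ubiquitin receptors, had 206, 231 and 236 FPKM in the bikaverin high-SAM libraries, against 125, 126 and 133 FPKM in the low-SAM libraries (log2 fold change 0.80 ± 0.08, limma adjusted p = 0.00018), and 298, 381 and 288 FPKM in the pRS416 high-SAM libraries, against 157, 152 and 151 FPKM in the low-SAM libraries (2.11-fold, adjusted p = 1.1e-05). RPN2 (chromosome IX, 217863 to 220700 in R64, minus strand, 1 exon), the scaffold that docks Rpn13, had 323, 396 and 323 FPKM in the pRS416 high-SAM libraries, against 142, 145 and 141 FPKM in the low-SAM libraries (2.44-fold, log2 fold change 1.27 ± 0.09, limma adjusted p = 1.1e-06). In the bikaverin pair it was 297 ± 7.16 FPKM in high SAM, against 181 ± 7.97 FPKM in low SAM (1.64-fold, SD, n = 3). No library of high SAM overlapped low SAM for either gene. The ubiquitin receptor gene RPN10 rose by log2 fold changes of 0.24 and 0.46, the first lost in 4 of 6 fits that left out 1 library. The gene of the other receptor, RPN13, was called in neither pair. It had 211, 223 and 223 FPKM in the bikaverin high-SAM libraries, against 197, 195 and 215 FPKM in the low-SAM libraries, with overlap and no call (log2 fold change 0.12 ± 0.08, limma adjusted p = 0.24), and 242, 267 and 226 FPKM in the pRS416 high-SAM libraries, against 275, 277 and 276 FPKM in the low-SAM libraries (log2 fold change -0.17 ± 0.07, limma adjusted p = 0.057). The pRS416 groups did not overlap, and RPN13 was called lower under quantile normalization, with voom and without replicate 2 of high SAM.

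Among the genes of the ATPase ring, the genes that changed most and least were not those of the other pair. RPT5 changed most in the bikaverin pair, with 255, 247 and 257 FPKM in high SAM, against 176, 170.2 and 182 FPKM in low SAM (log2 fold change 0.52 ± 0.07, limma adjusted p = 0.00073), and RPT6 least, with 247, 258 and 259 FPKM in high SAM, against 223, 218 and 236 FPKM in low SAM (0.18 ± 0.08, adjusted p = 0.078). Both sets of libraries were apart, RPT6 by a narrow margin. RPT6 changed most in the pRS416 pair, with 400.3, 509 and 394 FPKM in high SAM, against 266, 249.6 and 252 FPKM in low SAM (1.70-fold, log2 fold change 0.75 ± 0.10, limma adjusted p = 0.00011). RPT4 had 208, 234 and 208 FPKM in high SAM, against 231, 218 and 205 FPKM in low SAM (-0.01 ± 0.08, adjusted p = 0.92), groups that overlap throughout, and RPT5 had a log2 fold change of 0.08 that did not pass. RPT2, whose product opens the core gate, rose in both pairs by log2 fold changes of 0.46 and 0.37, and RPT3 by 0.34 and 0.23. The pRS416 calls of RPT2 and RPT3 were lost under quantile normalization, with log2 fold changes of 0.18 and 0.05. That of RPT3 was also lost with voom, without high-SAM replicate 2 and without each of the low-SAM replicates in turn. RPT1 rose in the bikaverin pair (0.29) and had a log2 fold change of 0.06 in the pRS416 pair, which did not pass.

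In the lid, RPN9 and RPN12 rose in both pairs and RPN8 did not pass in either. RPN9, a scaffold subunit, had 199, 195 and 200.4 FPKM in the bikaverin high-SAM libraries, against 132, 124 and 129 FPKM in the low-SAM libraries (1.55-fold, log2 fold change 0.62 ± 0.07, limma adjusted p = 0.00028), and it rose by 0.55 in the pRS416 pair. RPN12 rose by 0.52 and 0.58. RPN6, whose product contacts both base and core, changed most in the pRS416 pair, with 333, 402 and 349.6 FPKM in the pRS416 high-SAM libraries, against 230.5, 227 and 227 FPKM in the low-SAM libraries (1.58-fold, limma adjusted p = 5.4e-05), and its libraries there were far apart. RPN6 also rose in the bikaverin pair, by 0.28, a call lost in 3 of 6 fits that left out 1 library. RPN8, the partner of the Rpn11 deubiquitylase and 1 of the 3 genes without a PACE match, was the one lid gene with a negative log2 fold change in both pairs. It had 224, 223 and 237 FPKM in the bikaverin high-SAM libraries, against 264, 233 and 250.2 FPKM in the low-SAM libraries (-0.12 ± 0.08, limma adjusted p = 0.24), and 231, 287 and 208 FPKM in the pRS416 high-SAM libraries, against 253, 262 and 272 FPKM in the low-SAM libraries (-0.13 ± 0.11, adjusted p = 0.30). The groups overlapped in both pairs, and the pRS416 value was called lower under quantile normalization and without replicate 2 of high SAM. RPN11 itself rose by 0.29 and 0.31, the second being 0.12 and not called under quantile normalization. The pRS416 call of RPN11 was also lost without low-SAM replicate 2 or 3. RPN3 and RPN7 rose in the bikaverin pair (0.30 and 0.41) and had log2 fold changes of 0.00 and 0.06 in the pRS416 pair, neither past the test. RPN5 was called in the pRS416 pair alone (0.27, against 0.20 in the bikaverin pair). That call was lost under quantile normalization, with voom and without low-SAM replicate 1 or 2.

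In the alpha ring, the log2 fold change of SCL1 was above that of PRE8 in the pRS416 pair and below it in the bikaverin pair. SCL1 had 594, 725 and 581 FPKM in the pRS416 high-SAM libraries, against 330.0, 321 and 341 FPKM in the low-SAM libraries (1.92-fold, log2 fold change 0.93 ± 0.09, limma adjusted p = 1.4e-05), and the pRS416 high-SAM libraries held the highest levels of any subunit gene. It also rose in the bikaverin pair, by 0.38. PRE8 had 291, 291 and 282 FPKM in the bikaverin high-SAM libraries, against 184, 185 and 179 FPKM in the low-SAM libraries (1.58-fold, log2 fold change 0.66 ± 0.07, limma adjusted p = 0.00022), with groups far apart. In the pRS416 pair PRE8 had 182, 197 and 183 FPKM in high SAM, against 225, 195 and 194 FPKM in low SAM, groups that overlap (-0.12 ± 0.08, adjusted p = 0.17), and it was called lower under quantile normalization and with voom. PRE6 rose in both pairs, by 0.65 and 0.61, and PRE5 by 0.33 and 0.56. PUP2 changed least in the bikaverin pair, with 353, 358 and 358 FPKM in high SAM, against 346, 338 and 337 FPKM in low SAM (0.07 ± 0.07, limma adjusted p = 0.46). Its groups were barely apart there, and it did not pass in the pRS416 pair either (0.09). PRE9 rose in the bikaverin pair (0.37) and did not pass in the other (0.16). PRE10 rose by 0.54 in the bikaverin pair, and its pRS416 call (0.24) was lost in 5 of 6 fits that left out 1 library.

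In the beta ring, some genes rose in both pairs and others rose in the bikaverin pair and fell in the pRS416 pair. PRE3 (YJL001W, chromosome X, 435163 to 435926 in R64, plus strand, 2 exons), a catalytic subunit gene, had 197, 199 and 197 FPKM in the pRS416 high-SAM libraries, against 349, 330.0 and 348 FPKM in the low-SAM libraries. The high-SAM libraries were tightly grouped and lay far below low SAM (0.578-fold, log2 fold change -0.79 ± 0.06, limma adjusted p = 2.3e-06). In the bikaverin pair PRE3 had 394, 393 and 399 FPKM in high SAM, against 332, 348 and 316 FPKM in low SAM, a call in the other direction (0.25 ± 0.08, adjusted p = 0.025) that was lost in 4 of 6 fits that left out 1 library. PRE1, a non-catalytic subunit gene, had 185, 201 and 151 FPKM in the pRS416 high-SAM libraries, against 263, 269 and 281 FPKM in the low-SAM libraries (0.661-fold, limma adjusted p = 0.00045). PRE1 in the bikaverin pair was 292 ± 24.8 FPKM in high SAM, against 242 ± 0.770 FPKM in low SAM (SD, n = 3), a rise of 0.27 lost in 5 of 6 such fits. PUP1, catalytic and without a PACE match, had 177, 182 and 176 FPKM in the pRS416 high-SAM libraries, against 227, 213 and 205 FPKM in the low-SAM libraries (-0.27 ± 0.06, limma adjusted p = 0.0039), and 306, 303 and 313 FPKM in the bikaverin high-SAM libraries, against 220.3, 202 and 211 FPKM in the low-SAM libraries (0.54 ± 0.08, adjusted p = 0.0007). Neither pair of groups overlapped. The third catalytic gene, PRE2, rose in the bikaverin pair (0.36) and had 255, 253 and 258 FPKM in high SAM, against 260.4, 275 and 283 FPKM in low SAM in the pRS416 pair, a log2 fold change of -0.10 that did not pass and was called lower under quantile normalization and with voom. All 3 catalytic genes thus rose in the bikaverin pair, and in the pRS416 pair 0 rose and 2 fell.

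The other beta genes were not called lower. PRE4 changed most in both pairs, with 336, 348 and 347 FPKM in the bikaverin high-SAM libraries, against 235, 225 and 233 FPKM in the low-SAM libraries (0.57 ± 0.07, limma adjusted p = 0.00045), and 346, 434 and 359 FPKM in the pRS416 high-SAM libraries, against 242, 239 and 219.9 FPKM in the low-SAM libraries (0.69 ± 0.09, adjusted p = 0.00012). Its libraries were far apart in both. PUP3 had 379, 418 and 425 FPKM in the bikaverin high-SAM libraries, against 398, 402 and 419 FPKM in the low-SAM libraries, which overlap (0.00 ± 0.08, limma adjusted p = 0.99), and its log2 fold change of -0.15 in the pRS416 pair did not pass but was called lower under quantile normalization and with voom. PRE7 rose by 0.38 and 0.23, the second not called under quantile normalization (0.02). That pRS416 call was also lost with voom and without each of the low-SAM replicates in turn. The groups of PRE7 did not overlap in either pair.

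**Figure D3:**
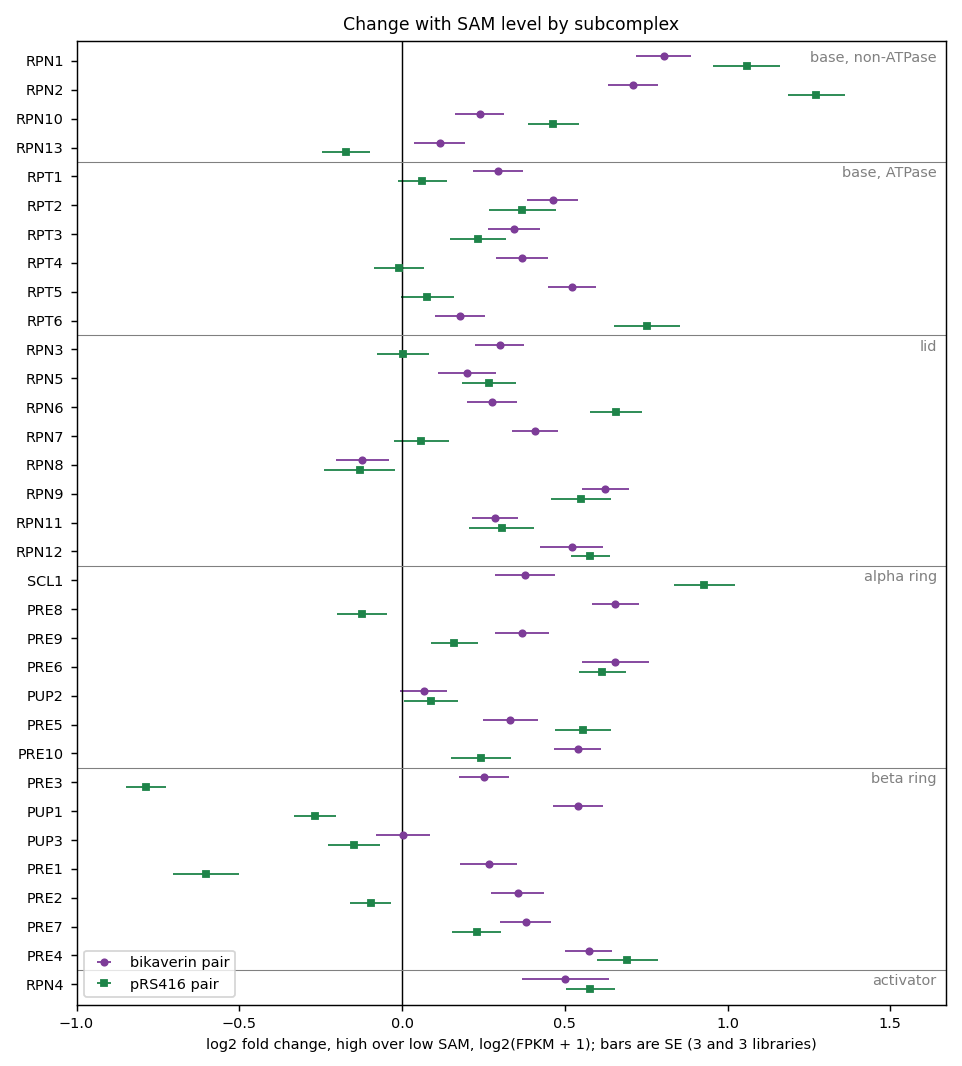
Log2 fold change of high over low SAM for each gene in the bikaverin pair (circles) and the pRS416 pair (squares), on the log2(FPKM + 1) scale; bars are the standard error of 3 and 3 libraries, and lines separate the subcomplexes. Circles lie between -0.12 and 0.80, and squares between -0.79 (PRE3) and 1.27 (RPN2).

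The change with SAM was compared between the pairs in 1 fit of all 12 libraries, as the log2 fold change of the bikaverin pair minus that of the pRS416 pair. Of 33 genes, 11 had a higher value and 4 a lower one, where 27.8% of the 6414 tested features were called higher and 29% lower (56.8% in either direction). Under quantile normalization the split was 16 and 3. With voom, where the median over all features was 0.10, it was 14 and 4. Without replicate 2 of pRS416 high SAM it was 13 and 4, and the median of the 32 subunits was 0.19, beside 0.10 with all libraries. Higher in the beta ring were PRE3 (1.04 ± 0.09, limma adjusted p = 1.1e-06), PRE1 (0.87 ± 0.14, adjusted p = 0.0002), PUP1 (0.81 ± 0.09, adjusted p = 1.3e-05) and PRE2 (0.45 ± 0.10, adjusted p = 0.0016), and PRE8 of the alpha ring (0.78 ± 0.10, adjusted p = 3.9e-05). RPT5, RPT4, RPN7, PRE10, RPN3 and RPN13 also had higher values, from 0.29 to 0.44, but the call of PRE10 was lost in 11, that of RPN13 in 9 and that of RPN3 in 8 of the 12 fits that left out a library. In the opposite direction were RPT6 (-0.58 ± 0.13, limma adjusted p = 0.0024), RPN2 (-0.56 ± 0.12, adjusted p = 0.0013), SCL1 (-0.55 ± 0.13, adjusted p = 0.0036) and RPN6 (-0.38 ± 0.11, adjusted p = 0.01). RPN6 was not called under quantile normalization (-0.18). The remaining 18 genes, RPN4 among them, did not pass.

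The balance of subunit mRNAs within a library was described from these levels, which are per length and so can be set beside each other. In every library the 32 subunits lay close together, with a SD of 0.34 to 0.50 on the log2 scale, beside 1.98 to 2.12 over all tested features. The highest subunit was 2.72 to 4.68 times the lowest. SCL1 was the highest in all 3 libraries of both high-SAM groups, and PUP3 in all 3 of pRS416 low SAM and in 2 of bikaverin low SAM. The mean level of a beta gene over that of an alpha gene was 1.07 ± 0.0036 in bikaverin high SAM and 1.13 ± 0.0341 in bikaverin low SAM, and 0.927 ± 0.0298 in pRS416 high SAM and 1.34 ± 0.0303 in pRS416 low SAM (SD, n = 3 each). The ratio of SCL1 to PRE3 was 1.22, 1.28 and 1.29 in bikaverin high SAM, against 1.12, 1.03 and 1.33 in bikaverin low SAM. It was 3.01, 3.64 and 2.95 in pRS416 high SAM, against 0.945, 0.973 and 0.980 in pRS416 low SAM. The ratio of RPN2 to PRE3 was 1.75 ± 0.205 in pRS416 high SAM and 0.417 ± 0.0189 in pRS416 low SAM. Its means were 0.751 in bikaverin high SAM and 0.548 in bikaverin low SAM. Thus both ratios to PRE3 were highest in pRS416 high SAM. They set genes among the largest rises of the pRS416 pair against the largest fall, so their difference within that pair followed from the choice of genes. The beta to alpha ratio was lowest in pRS416 high SAM and highest in pRS416 low SAM, with both bikaverin groups between. These levels were set side by side across separately normalized tables and not tested.

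**Figure D4:**
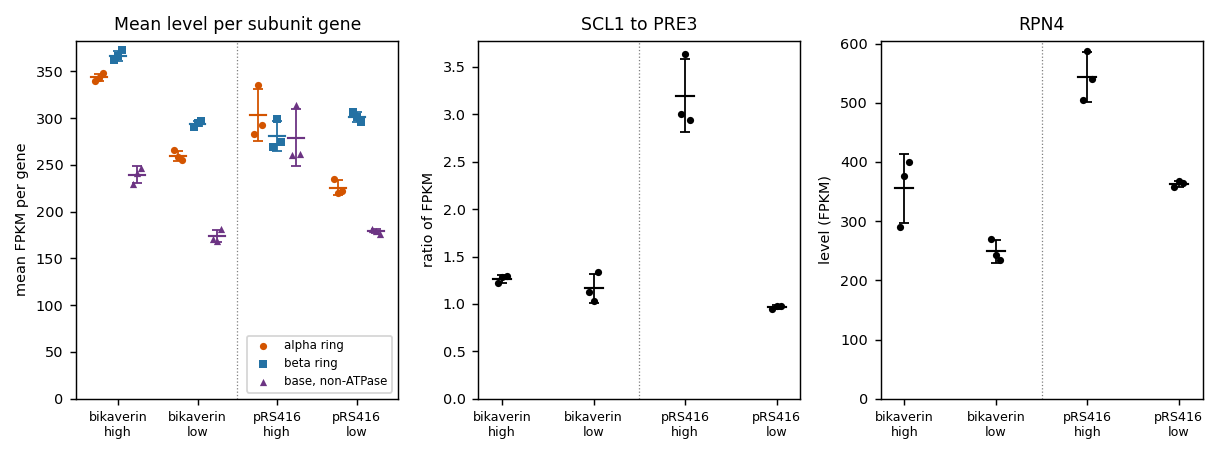
Mean FPKM per gene of the alpha ring, beta ring and non-ATPase base (left), ratio of SCL1 to PRE3 (middle) and RPN4 level in FPKM (right) in each group; points are libraries, bars mean ± SD of 3, and the dotted line separates the tables. The beta mean exceeds the alpha mean in every library but those of pRS416 high SAM, where the SCL1 to PRE3 ratio is 2.95 to 3.64.

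Across the 32 subunits, the log2 fold changes of the pairs had a Pearson's r of 0.46 and a Spearman's rho of 0.38, beside 0.59 and 0.51 over the 6282 features tested in both. Mean levels of the low-SAM groups had a rho of 0.80 between the tables, and those of the high-SAM groups 0.44. Between high and low SAM, rho was 0.81 in the bikaverin pair and 0.47 in the pRS416 pair. The log2 fold change had a rho with exonic length of 0.23 in the bikaverin pair and 0.36 in the pRS416 pair, beside 0.10 and 0.13 over all matched features. Pearson's r with log2 length was higher, at 0.40 and 0.53, beside 0.12 and 0.11. RPN1 and RPN2 are the longest of these genes, at 2982 and 2838 bases, and the catalytic genes PRE3, PUP1 and PRE2 have 648 to 864. These values describe genes of the same libraries, which share depth and RNA quality, and the part of length in the changes was not tested.

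Genes that rose were found both with and without a PACE match. Of the 29 subunit genes with GGTGGCNAA, 24 rose and 0 fell in the bikaverin pair (median log2 fold change 0.37) and 16 rose and 2 fell in the pRS416 pair (0.23). Of the 3 without it, 2 rose and 0 fell in the bikaverin pair (PUP1 and PRE5), and 1 rose and 1 fell in the pRS416 pair (PRE5 and PUP1). Outside the proteasome, GGTGGCAAA was upstream of 72 genes, of which 71 were tested in the bikaverin pair, where 31 were higher and 14 lower (median log2 fold change 0.19). Of 70 tested in the pRS416 pair, 37 were higher and 15 lower (0.26). These counts stand beside 28.8% and 39.1% called higher over all features, and 27.9% and 38.4% called lower. Among genes of the ubiquitin and proteasome lists, ECM29, CDC48, UBI4, UBA1 and YAP1 held the exact motif.

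Other genes of the pathway were taken as lists, whose counts stand beside 28.8% called higher and 27.9% lower over all features in the bikaverin pair and 39.1% and 38.4% in the pRS416 pair. Assembly factors moved both ways. Of 10 chaperone genes, 2 rose and 2 fell in the bikaverin pair (median log2 fold change 0.04) and 1 rose and 4 fell in the pRS416 pair (-0.03). UMP1, which matures the core particle, rose in both, with 362, 361 and 361 FPKM in the bikaverin high-SAM libraries, against 194, 190.5 and 185 FPKM in the low-SAM libraries (1.90-fold, limma adjusted p = 4.6e-05), and 396, 473 and 426 FPKM in the pRS416 high-SAM libraries, against 184, 179 and 191 FPKM in the low-SAM libraries (2.33-fold, adjusted p = 7.6e-07). Groups were far apart in both. The base assembly chaperone genes HSM3 and NAS2 fell in both pairs, HSM3 by log2 fold changes of -0.56 and -0.40 and NAS2 by -0.61 and -0.50. ADD66, of the alpha ring chaperones, rose in the bikaverin pair (0.36) and did not pass in the pRS416 pair (0.08). Its partner PBA1 fell in the pRS416 pair (-0.54) and did not pass in the bikaverin pair (0.20). Without replicate 1 of bikaverin high SAM, 4 of the 10 rose in the bikaverin pair, and without replicate 3 of pRS416 high SAM, 2 rose in the pRS416 pair.

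Of 8 genes of caps and associated proteins, 3 rose and 3 fell in the bikaverin pair (median log2 fold change 0.19) and 4 rose and 3 fell in the pRS416 pair (0.15, with 2 rising under quantile normalization and without low-SAM replicate 2). ECM29, which tethers core to regulatory particle, had the highest fold change of the list, with 27.7, 29.2 and 27.7 FPKM in the bikaverin high-SAM libraries, against 10.8, 11.5 and 8.98 FPKM in the low-SAM libraries (2.70-fold, limma adjusted p = 5.9e-05), and a 3.69-fold difference in the pRS416 pair (log2 fold change 1.76 ± 0.10, adjusted p = 2.5e-07). Its libraries were apart in both pairs. BLM10, an alternative cap, fell in both pairs (-0.47 and -0.51), as did FUB1, an inhibitor of the core (-0.66 and -1.24). CIC1, described as a proteasome adaptor and also a ribosome assembly factor, rose by 1.27 and 0.59, and the proteasome-bound deubiquitylase gene UBP6 rose by 0.57 and 0.21, the pRS416 call being lost under quantile normalization, with voom and without low-SAM replicate 2. SEM1, a small lid subunit outside the RPN and RPT names, had 222, 236 and 176 FPKM in the pRS416 high-SAM libraries, against 284, 240.1 and 259.7 FPKM in the low-SAM libraries, a fall (-0.31 ± 0.11, limma adjusted p = 0.031), and did not pass in the bikaverin pair (0.17). The pRS416 call of SEM1 was lost without high-SAM replicate 3, low-SAM replicate 1 or low-SAM replicate 3. SEM1 was named for being a lid subunit, after its values were seen.

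Several genes that deliver ubiquitylated proteins rose. Of 10, 5 rose and 1 fell in the bikaverin pair (median log2 fold change 0.29) and 7 rose and 1 fell in the pRS416 pair (0.47), and the counts were the same under quantile normalization and with voom. CDC48, the segregase ATPase, had 541, 664 and 679 FPKM in the bikaverin high-SAM libraries, against 408, 406 and 437 FPKM in the low-SAM libraries (1.51-fold, limma adjusted p = 0.0027), and 564, 709 and 605 FPKM in the pRS416 high-SAM libraries, against 358, 347 and 349 FPKM in the low-SAM libraries (1.78-fold, adjusted p = 2.6e-05). Its cofactor SHP1 rose in the pRS416 pair (0.69) and did not pass in the bikaverin pair (-0.00). Its cofactor UFD1 rose in both (0.75 and 0.53), as did the shuttle receptor RAD23 (0.67 and 0.49). OTU1, a deubiquitylase bound to Cdc48, fell in both (-0.53 and -0.88).

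Of 14 genes of ubiquitin and its activating and conjugating enzymes, 4 rose and 4 fell in the bikaverin pair (median log2 fold change 0.05) and 9 rose and 2 fell in the pRS416 pair (0.49, with 1 falling without low-SAM replicate 2). The polyubiquitin gene UBI4 had 1619, 1776 and 1826 FPKM in the bikaverin high-SAM libraries, against 1019.6, 974 and 1026 FPKM in the low-SAM libraries (1.73-fold, limma adjusted p = 0.00029), and 2551, 3069 and 2774 FPKM in the pRS416 high-SAM libraries, against 898, 891 and 851 FPKM in the low-SAM libraries (3.18-fold, adjusted p = 2.8e-07). The groups did not overlap. UBC4, a conjugating enzyme for short-lived proteins, had 869, 984 and 975 FPKM in the pRS416 high-SAM libraries, against 225, 227 and 209 FPKM in the low-SAM libraries (4.28-fold, limma adjusted p = 2e-08), the largest rise of the list. It also rose in the bikaverin pair (0.47), a call lost without high-SAM replicate 2. Its close paralog UBC5 fell in the bikaverin pair (-0.91) and did not pass in the pRS416 pair (0.09). How reads shared by close copies, such as UBC4 and UBC5 or the ubiquitin repeats of UBI4, were counted, the sources used here do not say. RAD6, which with Ubr2 marks Rpn4 for degradation, rose in both (0.52 and 1.08), whereas UBC8 fell in the bikaverin pair (-0.94) and rose in the pRS416 pair (0.84).

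Of 12 ubiquitin ligase genes, 4 rose and 2 fell in the bikaverin pair (median log2 fold change 0.09) and 6 rose and 4 fell in the pRS416 pair (0.18). HRD1, of endoplasmic reticulum protein degradation, fell in both (-0.75 and -1.22). Its partner HRD3 fell in the bikaverin pair (-0.60) and rose in the pRS416 pair (0.19, limma adjusted p = 0.048), a rise lost in 5 of 6 fits that left out 1 library, under quantile normalization and with voom. SSM4, of the other branch of that pathway, rose in both pairs (0.55 and 0.32), as did RSP5 (0.51 and 0.48), UBR1, the N-end rule ligase (0.45 and 1.31), and UFD4 (0.31 and 0.78). The bikaverin call of UFD4 (limma adjusted p = 0.049) was lost in 5 of 6 fits that left out 1 library and under quantile normalization. RAD18, a DNA repair ligase, fell in the pRS416 pair (-1.44) and did not pass in the bikaverin pair (0.06). Of 15 deubiquitylase genes, 3 rose and 4 fell in the bikaverin pair (-0.03) and 7 rose and 2 fell in the pRS416 pair (0.05), where voom called 3 and 3. With 1 library left out, 4 to 6 rose in the pRS416 pair, the 4 being without low-SAM replicate 3, and 2 fell in the bikaverin pair without high-SAM replicate 2 or low-SAM replicate 1. UBP13 fell in both, with 41.7, 39.9 and 42.5 FPKM in the bikaverin high-SAM libraries, against 152, 148 and 141 FPKM in the low-SAM libraries (0.282-fold, limma adjusted p = 1.9e-06), and 43.3, 37.0 and 39.8 FPKM in the pRS416 high-SAM libraries, against 177, 178 and 188 FPKM in the low-SAM libraries (0.221-fold, adjusted p = 1.1e-08). UBP3 rose in both (0.60 and 0.91), as did UBP1 (0.64 and 0.28). YUH1 fell in the bikaverin pair (-0.82) and rose in the pRS416 pair (0.23), the rise being lost with voom and without low-SAM replicate 3. DOA4, which recycles ubiquitin at endosomes, likewise fell in the bikaverin pair (-0.39, limma adjusted p = 0.046, lost in 4 of 6 fits that left out 1 library) and rose in the pRS416 pair (0.68). UBP8 fell in the pRS416 pair (-0.30) and did not pass in the bikaverin pair (0.22).

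Of 7 genes of factors that act on RPN4 or its product, 3 rose and 1 fell in each pair (median log2 fold changes 0.11 and 0.17), and 2 fell in the bikaverin pair under quantile normalization. Without high-SAM replicate 2, low-SAM replicate 1 or low-SAM replicate 2, 1 rose in the bikaverin pair. YAP1 rose by 0.27 and 0.33, and PDR3 fell by log2 fold changes of -0.31 and -0.57, next to the rise of RPN4. PDR1 rose in the bikaverin pair (0.27) and did not pass in the pRS416 pair (0.17). UBR2, of the ligase for Rpn4, rose in the pRS416 pair (0.46) and did not pass in the bikaverin pair (-0.19). The calls of YAP1 and PDR1 and of PDR3 in the bikaverin pair were each lost in at least 1 fit that left out a library, and the pRS416 call of YAP1 under quantile normalization.

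Vacuolar proteases, the other main route of protein breakdown, split. Of 7, 3 rose and 3 fell in the bikaverin pair (median log2 fold change -0.14, and 0.01 under quantile normalization) and 4 rose and 3 fell in the pRS416 pair (0.59). The protease B gene PRB1 was 4082 ± 214 FPKM in high SAM, against 1628 ± 94.3 FPKM in low SAM in the bikaverin pair (2.51-fold), and 3773 ± 434 FPKM in high SAM, against 981 ± 18.9 FPKM in low SAM in the pRS416 pair (3.85-fold, SD, n = 3 each). APE1 rose in both (1.68-fold and 2.02-fold), and so did PEP4 (log2 fold changes 0.34 and 1.18, the first lost without high-SAM replicate 2). APE3 fell in both (-0.64 and -1.36), while CPS1 fell in the bikaverin pair (-0.97) and rose in the pRS416 pair (0.59). Of 14 cytosolic chaperone genes, 3 rose and 3 fell in the bikaverin pair (-0.14, with 1 falling under quantile normalization) and 9 rose and 3 fell in the pRS416 pair (0.52). Their summed level was nonetheless lower in pRS416 high SAM, at 21618 to 27164 FPKM, against 31158 to 31720 FPKM in low SAM. In the bikaverin pair it was 12271 to 18389 FPKM in high SAM, against 14445 to 19883 FPKM in low SAM. Replicate 3 of bikaverin low SAM was the lowest of its 3 libraries in 14 of the 14, with 439.6 FPKM of HSP82 against 808 and 733 FPKM in the other low-SAM libraries. Without it 2 rose and 5 fell, and 1 fell without high-SAM replicate 2 or without low-SAM replicate 1 or 2. HSP82 was 1382 ± 235 FPKM in high SAM, against 660.3 ± 195 FPKM in low SAM in the bikaverin pair, and 2245 ± 132 FPKM in high SAM, against 667 ± 12.6 FPKM in low SAM in the pRS416 pair (2.09-fold and 3.37-fold, SD, n = 3 each). SSA1 rose in both (1.97-fold and 2.69-fold), and so did SSA4 (log2 fold changes 0.69 and 0.77, the first lost in 3 of 6 fits that left out 1 library). FES1 fell in both (-0.83 and -0.23, the second lost without low-SAM replicate 1). SSA2 rose (1.25) and SSA3 fell (-1.60) in the pRS416 pair, and neither passed in the bikaverin pair (0.64 and -0.27). The SSA genes are close copies of one another, so that their separate values are uncertain. The same fit of all 12 libraries tested the difference between the pairs for the list genes. Over all tested features, 56.8% passed this test. The 5 genes named above with opposite calls in the pairs passed it, with log2 differences (bikaverin pair minus pRS416 pair) of -1.78 for UBC8, -1.56 for CPS1, -1.07 for DOA4, -1.05 for YUH1 and -0.79 for HRD3 (limma adjusted p at most 0.00019). As these 5 were singled out by opposite calls in the same libraries, their passing was nearly fixed in advance. Genes outside the naming rule also had opposite calls (bikaverin pair, then pRS416 pair), among them SPG5 (-0.78 and 0.28), UBC7 (-0.42 and 0.70) and UBC6 (-0.22 and 0.32). The pRS416 call of SPG5 was lost without any 1 of the low-SAM replicates. With 1 library left out, 3 to 4 of the 14 genes of ubiquitin and its enzymes fell in the bikaverin pair. Of the genes named as called in 1 pair and not in the other, PBA1, SEM1, SHP1, UBC5, RAD18, UBP8, UBR2 and SSA3 passed the test of the difference (limma adjusted p at most 0.018). ADD66 (0.28, limma adjusted p = 0.064), PDR1 (0.10, adjusted p = 0.47) and SSA2 (-0.61, adjusted p = 0.17) did not. These genes too were chosen by calls in the same libraries, so their passing was not independent of that choice.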

How the data were processed

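RNA-seq of 12 samples in 4 groups of 3 was analysed. The authors deposited FPKM, nominally fragments per kilobase of gene per M mapped, in 2 separately normalized tables. Frozen samples were ground, total RNA was taken with a plant RNA kit, and libraries came from a Fast RNA-seq V2 kit, all per the labels' protocols. Per the submitters' processing notes, the build was R64 and the tools were featureCounts 1.5.0-p3, HISAT2 2.0.5 and fastp. The sources used here do not give strand setting, annotation or read filters. Each column was joined to its sample by strain and replicate in the sample titles and library names, because a label field gives other column numbers. All columns were used.

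Of 6845 and 6818 features, 5944 and 5934 matched the R64 RefSeq annotation (710 identifiers restyled). By that annotation, none of the 33 genes overlaps another gene. Multiplied by exonic length, 97.3% to 98.8% of the values below 1000 reads came out whole to within 0.02, which gave the depths. In some libraries the recovered gene reads exceeded the total used for scaling. These were pRS416 high-SAM replicates 2 (41717429 against 40731704) and 3 (45132598 against 43092482), and bikaverin low-SAM replicate 3 (17828124 against 17656855). What the scaling totals count is therefore not known. A level from 3 reads of a 1 kb gene is 0.170 to 0.195 FPKM in the bikaverin table and 0.0665 to 0.0737 FPKM in the pRS416 table, and covers counting error alone.

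Within each table, high SAM was tested against low SAM with limma 3.58.1 (R 4.3.3, intensity trend) on log2(FPKM + 1). Features averaging under 1 FPKM were left out, with Benjamini-Hochberg adjustment over all features and calls at 0.05. The difference between pairs was a contrast in 1 fit of 12 libraries. Folds are ratios of mean FPKM. Log2 fold changes on the log2(FPKM + 1) scale understate those of low genes. The fits were tested on simulated data. Alternatives were pseudocounts of 0.1 and 5, no filter or 10 FPKM, quantile normalization, median centring, a replicate block, no trend, leaving out each library, and voom on recovered reads, chosen after seeing the data.

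The members and lists were chosen with earlier results of these data known. Values per library are given for RPN4 and for the genes of largest and smallest log2 fold change in each subcomplex and pair. From each list, up to 4 genes of smallest p per pair are named, some with levels and the rest by log2 fold change. Values per library of RPN1, PUP1, PRE1, PRE2, PRE3 and SEM1 beyond this rule were added after they were seen. Motifs were searched on both strands in 500 bases before each R64 start codon.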

Additional observations from a re-analysis of the deposited data

Results flagged for a closer look

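The change with SAM differed between the strain pairs in 15 of the 33 genes, by the limma test of the difference itself (log2 fold change of the bikaverin pair minus that of the pRS416 pair, adjusted p below 0.05). Over all 6414 tested features, 56.8% were called in the same test, a larger share. The log2 difference was 1.04 for PRE3, 0.87 for PRE1, 0.81 for PUP1 and 0.45 for PRE2, of the beta ring. It was 0.78 for PRE8 and 0.30 for PRE10, of the alpha ring, where SCL1 had -0.55. In the lid it was 0.35 for RPN7, 0.30 for RPN3 and -0.38 for RPN6. In the base it was 0.44 for RPT5, 0.38 for RPT4, 0.29 for RPN13, -0.56 for RPN2 and -0.58 for RPT6. With 1 library left out at a time, 12 of the 15 calls held in every fit. Groups of 3 libraries were too small for a check of single outlying samples.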

How the results depend on the processing

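No gene of the 33 changed direction with a call under any alternative run. In the bikaverin pair the number called higher was 22 to 26 with 1 library left out, 24 with the replicate block and 27 or 28 in the others, and 0 were called lower in each. In the pRS416 pair the number called lower was 8 under quantile normalization, 7 with voom on recovered reads and 3 to 5 with 1 library left out (5 without high-SAM replicate 2). The number called higher there was 12, 14 and 13 to 18 under the same alternatives, in that order. The median of the 32 subunits there was 0.0442 under quantile normalization and 0.151 to 0.265 with 1 library left out (0.151 without high-SAM replicate 2). The cause was not tested. Of the calls, 20 of 27, 16 of 21 and 12 of 15 (difference between the pairs) held in every fit with 1 library left out, and 12 to 17 differences were called in those fits. With the replicate block, 17 genes were higher and 3 lower in the pRS416 pair, and 8 and 4 in the difference. Deviations of same-numbered libraries had correlations of -0.079 to 0.12 (bikaverin) and -0.14 to -0.032 (pRS416), so the numbers were not taken as pairs. Pseudocounts, filters, centring and the trend moved no count of members called by more than 1. The fewest reads behind a value of these genes was 1518, and precision is limited by the spread among libraries and by 3 libraries in a group. The median SD of a subunit was 9.81% of its mean in pRS416 high SAM and 3.45% in pRS416 low SAM. In the shallower bikaverin libraries it was 2.37% in high SAM and 4.38% in low SAM.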
